A study of Mus musculus with 16 samples.

Results

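RNA bound to astrocyte ribosomes was set against bulk RNA of the same tissue in the striatum of Control mice. The comparison holds 8 of the 16 RNA-seq libraries of the series, 1 of IP and 1 of Input for each of 4 Control mice, and tested 19715 of the 48795 gene identifiers in the table. All mice of the series were CAG-Cas9-EGFP mice, which express the nuclease Cas9 and EGFP in all cells, and both sides of the central striatum were injected with AAV2/5 viruses at 6 to 8 weeks of age. One virus made astrocytes express Rpl22-HA, a protein of the large ribosomal subunit with a haemagglutinin tag, from GfaABC1D, a short promoter derived from human GFAP, and a second virus carried guide RNAs with an mCherry reporter. The guides were directed against GFP in Control mice, which the labels call WT, and against Crym in 4 Crym KO mice. The Crym KO mice served here as a second set of animals and for a test of the difference between genotypes. Control mice therefore carried Cas9, both viruses and an active guide, and no uninjected mouse entered the comparison. Striata were taken at 10 to 12 weeks of age and each mouse gave 1 lysate, from which an antibody against the tag precipitated tagged ribosomes with their RNA (IP), while a part of the lysate was kept as RNA of all cells (Input).

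Astrocytes are the star-shaped glia of the brain. In the striatum they enwrap the synapses of medium spiny neurons, take up the glutamate, GABA and potassium released there, store glycogen and supply lipids and antioxidants to neighbouring cells. Because a tagged ribosome holds the messages that a cell is translating, RNA pulled down with the tag is called a translatome, and a gene used mainly by tagged cells makes up a larger share of IP than of Input. The quantity given throughout is the log2 ratio of these shares, so a value of 1 means a share 2-fold larger in IP and a value of -1 a share 2-fold smaller. A ratio of this kind cannot tell fewer cells of a type from less RNA per cell.

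Total counts per library were 52632309 to 61368342 in IP and 44374034 to 54235574 in Input, and 24699 to 25511 genes in IP and 26884 to 27280 genes in Input had at least 1 count. Levels are given as CPM, counts scaled to depth by a library size that was adjusted for composition, in the order of mice 1 to 4. Some libraries stood apart. Mouse 2 had the lowest IP over Input ratio for all 20 astrocyte markers and for 678 of the 769 IP-enriched genes at 10 CPM or more in IP, and mouse 1 the highest for 511 of them. Mouse 4 held the most choroid plexus and midbrain dopamine neuron RNA in both fractions, the former mainly in Input and the latter mainly in IP. It also held the least interferon-induced RNA in both fractions. Cortical neuron genes were lower in the IP of mice 1 and 4 than in that of mice 2 and 3. These values stand beside the results they touch, and their part in those results was not tested.

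The 3 genes used to mark astrocytes were all higher in IP, in every mouse. Aldh1l1 (ENSMUSG00000030088, plus strand of chromosome 6, 90486427 to 90600203 in GRCm38) encodes a folate enzyme that is a standard astrocyte marker. It was at 366, 267, 309.5 and 332 CPM in IP, against 77.3, 76.5, 68.5 and 72.7 CPM in Input, a log2 fold change of 2.10 (adjusted p = 1.99e-07, SE 0.07). Slc1a2 (ENSMUSG00000005089, plus strand of chromosome 2, 102658659 to 102790784) encodes GLT-1, the main glutamate transporter of astrocytes, and was at 12629, 9892, 13754 and 14726 CPM in IP, against 3937, 3815, 3823 and 3764 CPM in Input, a log2 fold change of 1.72 (adjusted p = 9.89e-07, SE 0.09). Gja1 (ENSMUSG00000050953, plus strand of chromosome 10, 56377330 to 56402513) encodes connexin 43, which forms the gap junctions between astrocytes, and was at 573, 482, 548 and 633 CPM in IP, against 117, 131, 124 and 132 CPM in Input, a log2 fold change of 2.14 (adjusted p = 1.78e-07, SE 0.07). The lowest IP library was above the highest Input library for each of them, and the Input values of the 4 mice lay close together.

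The same held for the wider astrocyte list. All 20 markers passed the test as higher in IP, all 20 by more than 2-fold, with a median log2 fold change of 2.01 beside -0.02 over all genes tested. Over all genes, 7217 (36.6%) passed as higher in IP and 7502 (38.1%) as lower. With plain library-size scaling these were 5027 and 9519, and the median of all genes then lay at -0.19. A gene was called IP-enriched when its adjusted p was under 0.05 and its log2 fold change above 1, which held for 1425 genes (7.23%), and IP-depleted when the log2 fold change was below -1, which held for 3666 genes (18.6%). The summed level of the 20 markers was 31865, 23888, 30774 and 33091 CPM in IP, against 8565, 8354, 8156 and 8464 CPM in Input. Without any 1 of the 4 mice all 20 were still enriched, and the list median was between 1.97 and 2.12.

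**Figure D1:**
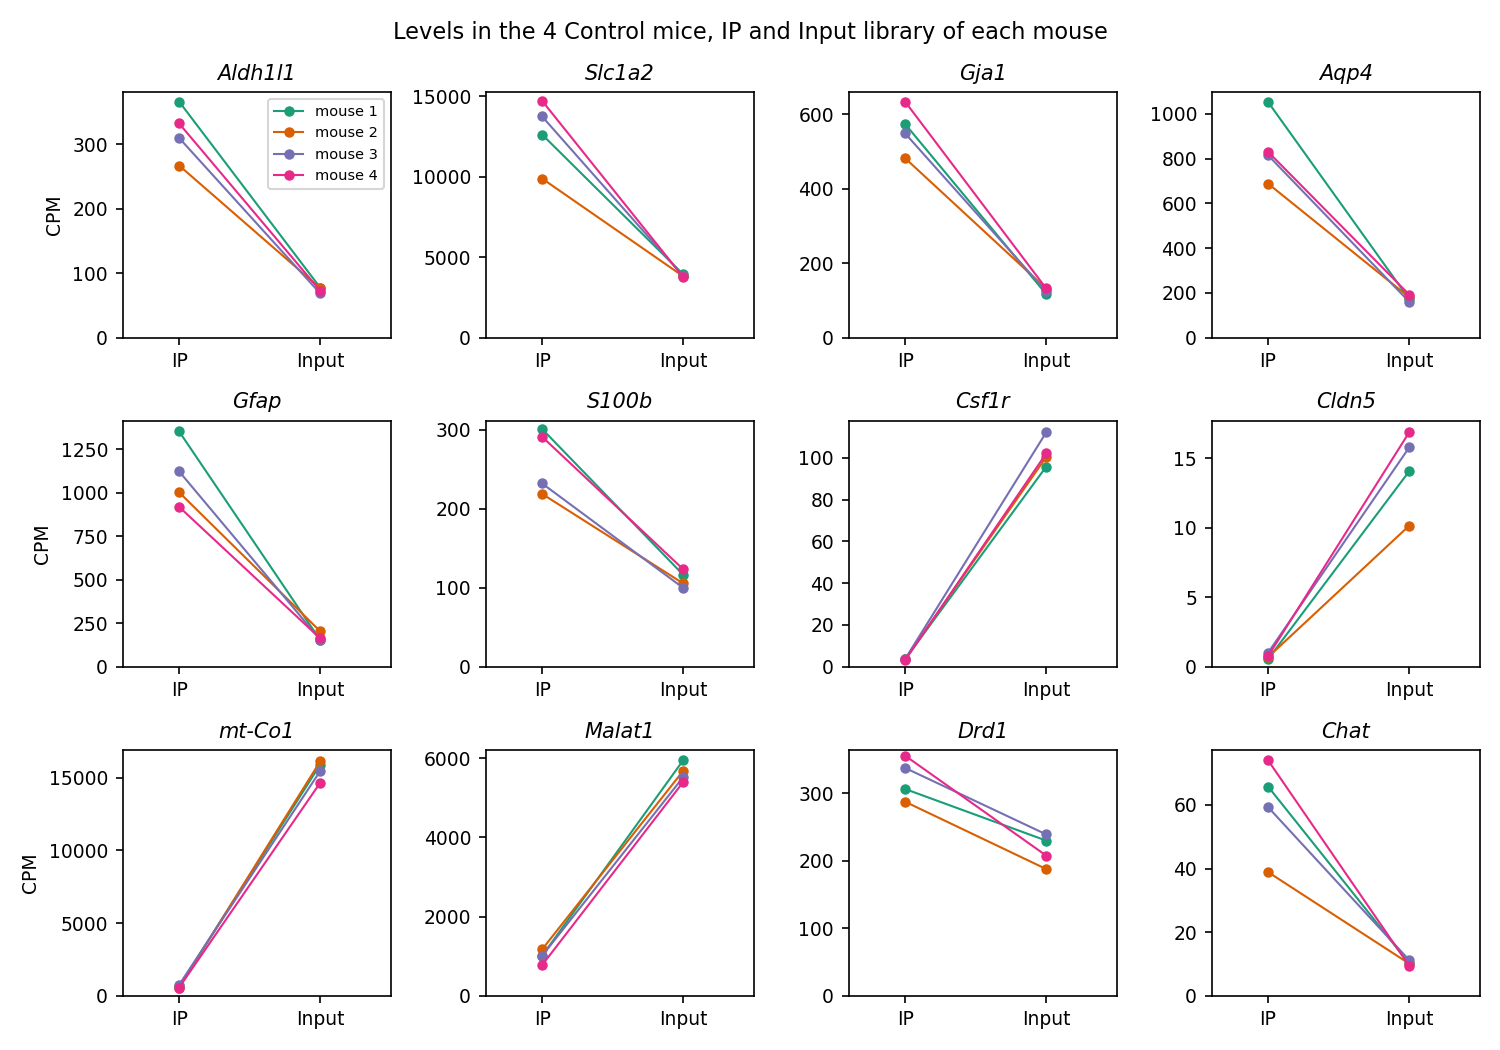
Level in CPM (vertical axes, from 0) of 12 genes in the IP (left) and Input (right) library of each Control mouse, with 1 line per mouse. The 6 astrocyte genes, the medium spiny neuron gene Drd1 and the cholinergic gene Chat are higher in IP in all 4 mice, and the microglial Csf1r, the endothelial Cldn5, the mitochondrial mt-Co1 and the nuclear Malat1 are lower in IP in all 4.

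Among the astrocyte markers the largest change was that of Gfap (ENSMUSG00000020932, minus strand of chromosome 11, 102887336 to 102900912), an intermediate filament protein that astrocytes make more of when reactive. It was at 1351, 1002, 1122 and 918 CPM in IP, against 152, 203, 154 and 162 CPM in Input, a log2 fold change of 2.70 (adjusted p = 4.73e-07, SE 0.12). Aqp4, the water channel of astrocyte endfeet, was at 1053, 688, 815 and 831 CPM in IP, against 172, 180.5, 160.4 and 192 CPM in Input and changed by 2.25 (adjusted p = 4.35e-07, SE 0.10). S100b, a calcium-binding protein that some oligodendrocytes also make, had the smallest change of the list, with 301, 219, 232 and 291 CPM in IP, against 116, 105, 99.8 and 123 CPM in Input and a log2 fold change of 1.22 (adjusted p = 4.87e-07, SE 0.05). The other 17 markers lay between these values, among them the transcription factor Sox9 (2.01), the glycolytic enzyme Aldoc (2.04), glutamine synthetase Glul (1.59) and the adhesion protein Hepacam (1.49).

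Crym (ENSMUSG00000030905, minus strand of chromosome 7, 120186380 to 120202111), the gene of the thyroid hormone-binding protein μ-crystallin, was IP-enriched in these Control mice. Its level was 218, 126, 189 and 214 CPM in IP, against 53.3, 52.9, 65.8 and 54.6 CPM in Input, a log2 fold change of 1.70 (adjusted p = 3.66e-06, SE 0.12), with no overlap between the fractions. Rpl22 (ENSMUSG00000028936, plus strand of chromosome 4, 152325742 to 152334071), the gene whose tagged copy the virus delivers, was at 345, 344, 281 and 338 CPM in IP, against 81.5, 112, 83.5 and 88.4 CPM in Input and changed by 1.85 (adjusted p = 3.17e-07, SE 0.07). Reads of the viral Rpl22-HA and of the endogenous gene cannot be told apart in this table, so the value says only that Rpl22 reads were more abundant in IP.

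The 250 bases upstream of the start are shown for the astrocyte markers whose window held TTGGCA, the half-site of nuclear factor I, a family of transcription factors known for its role in astrocyte formation. The window was 300 bases, 250 before and 50 after the RefSeq start of each gene in GRCm38.p6, and both strands were searched. Of the 20 markers 17 had a sequence, and 3 of these 17 held the motif. The printed part runs 5′ to 3′ on the gene's strand, with the motif in capitals.
Aldoc (chr11:78322823-78323072, plus strand): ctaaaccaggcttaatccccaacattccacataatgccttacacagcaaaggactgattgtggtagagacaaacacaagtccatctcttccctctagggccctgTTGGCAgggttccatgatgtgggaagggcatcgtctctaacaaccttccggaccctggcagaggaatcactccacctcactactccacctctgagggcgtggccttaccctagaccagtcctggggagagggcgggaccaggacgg
S100b (chr10:76253586-76253835, plus strand): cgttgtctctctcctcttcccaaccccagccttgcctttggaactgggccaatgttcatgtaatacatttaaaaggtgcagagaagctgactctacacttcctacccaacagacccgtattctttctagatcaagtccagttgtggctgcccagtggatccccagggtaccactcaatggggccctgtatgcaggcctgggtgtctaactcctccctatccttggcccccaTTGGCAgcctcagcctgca
Hepacam (chr9:37367356-37367605, plus strand): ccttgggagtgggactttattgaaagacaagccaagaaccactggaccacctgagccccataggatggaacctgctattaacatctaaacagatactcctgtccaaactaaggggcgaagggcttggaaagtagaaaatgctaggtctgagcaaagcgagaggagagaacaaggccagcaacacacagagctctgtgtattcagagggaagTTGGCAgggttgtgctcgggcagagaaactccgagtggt
Among protein-coding genes with a sequence, TTGGCA was in 136 of 975 IP-enriched promoters (13.9%) and 128 of 1013 IP-depleted promoters (12.6%), beside 1352 of 11711 of all tested (11.5%). Over all 27025 promoters of that length the share was 14.4%.

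The fold changes reached further down than up. The highest log2 fold change of any gene was 3.08 and the lowest -6.56. Past the test, 238 genes were above 2 and 2 above 3, while 2124 were below -2, 876 below -3, 185 below -4 and 32 below -5. The IP and Input libraries did not overlap for 1308 of the 1425 IP-enriched genes (91.8%) and 3536 of the 3666 IP-depleted genes (96.5%), beside 67.2% of all genes tested. The IP-enriched genes took 15.5, 11.6, 13.7 and 14.4% of all counts in IP, against 5.34, 5.32, 5.22 and 5.45% in Input. They were selected in these same libraries for a higher level in IP, so the direction of this difference was fixed.

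**Figure D2:**
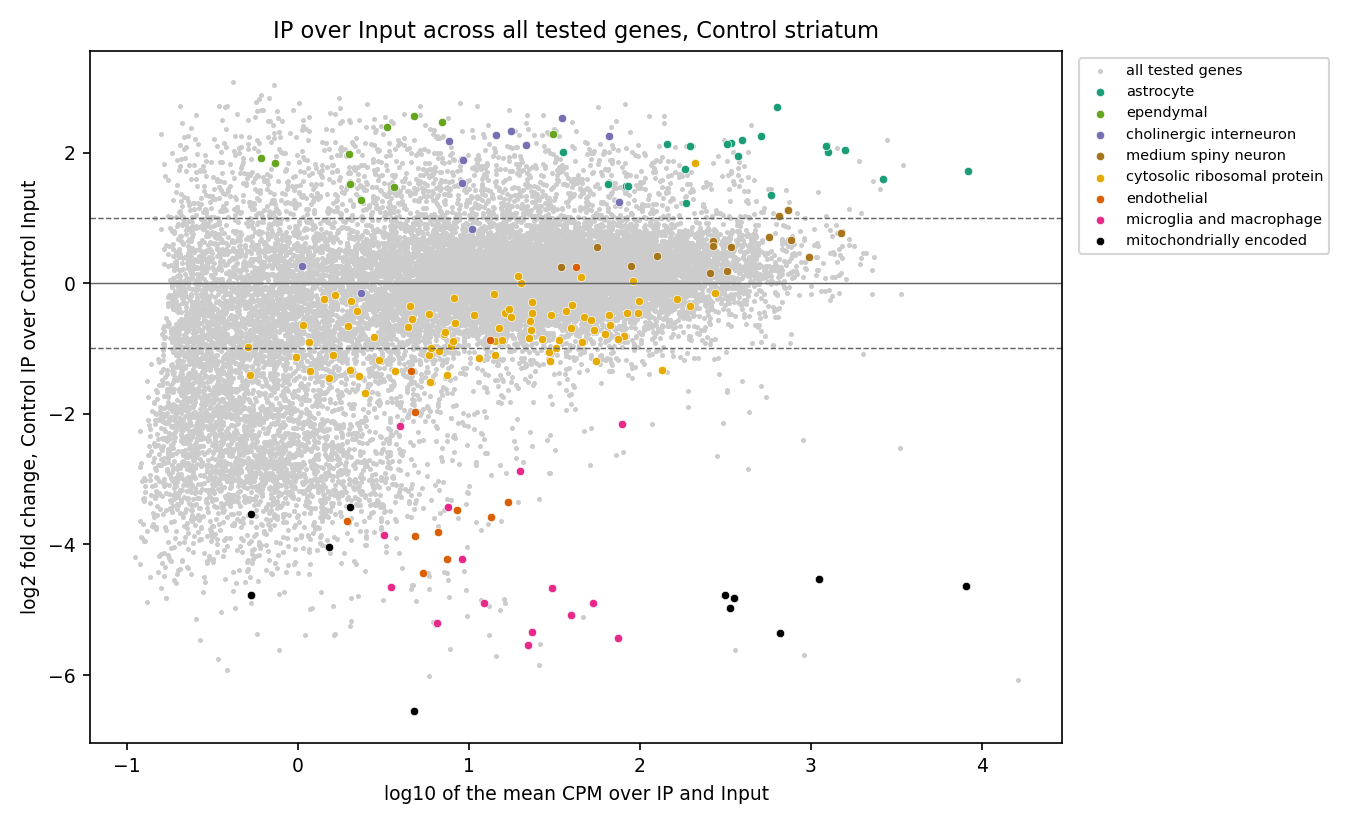
Log2 fold change of Control IP over Control Input (vertical axis) against log10 of the mean CPM over both fractions (horizontal axis) for the 19715 genes tested, with 8 gene lists in colour and dashed lines at 1 and -1. The 20 astrocyte genes lie above 1, the microglial and mitochondrially encoded genes lie below -2, and the ribosomal protein genes lie between -1.68 and 0.11 apart from Rpl22 at 1.85.

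Genes of microglia, the resident immune cells of the brain, were lower in IP without exception. All 15 listed markers passed as IP-depleted, with a median log2 fold change of -4.67, and their summed level was 46.9 to 56.6 CPM in IP, against 655 to 791 CPM in Input. Csf1r, the receptor that microglia need to survive, was at 3.55, 3.46, 3.62 and 3.07 CPM in IP, against 95.8, 100.4, 112 and 102 CPM in Input, a log2 fold change of -4.90 (adjusted p = 1.85e-08, SE 0.08). The complement gene C1qa had 2.30, 2.36, 2.99 and 1.45 CPM in IP, against 74.3, 88.0, 81.8 and 64.2 CPM in Input (-5.08). Ctss, Spi1, C1qb and Ccl9, which are immune cell genes too, were among the 15 lowest genes of the whole table by the naming rule. Blood and lymphocyte genes moved the same way, with 5 of 5 tested markers lower in IP and -4.89 for the globin gene Hbb-bs.

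Vessel genes were mostly depleted as well. Of 12 endothelial markers 11 passed as lower in IP, 10 of them as IP-depleted, and the median was -3.53. Cldn5, the tight junction protein of the blood-brain barrier, was at 0.543, 0.685, 1.00 and 0.757 CPM in IP, against 14.1, 10.1, 15.8 and 16.9 CPM in Input, a log2 fold change of -4.22 (adjusted p = 3.76e-07, SE 0.17). Slc2a1, the glucose transporter of vessels and also of astrocytes, was the exception at 0.25, adjusted p = 0.0149, and its call was lost when scaled to plain library size (0.08, adjusted p = 0.393). Among 9 mural cell genes 6 were lower in IP, including Vtn (-2.39) and Rgs5 (-1.71), and 3 were higher. These 3 were the smooth muscle genes Acta2 (1.36) and Tagln (0.92) and the receptor Pdgfrb, with 32.9, 23.8, 34.6 and 44.6 CPM in IP, against 19.2, 18.4, 20.6 and 21.4 CPM in Input (0.76). Leptomeningeal fibroblast genes were lower in 7 of 8 cases, with a median of -3.32.

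The oligodendrocyte lineage showed no such depletion in its mature form. Of 14 genes of myelinating cells, 8 passed as higher in IP, 2 as lower and 4 did not pass, with none past 2-fold and a median of 0.41. Under library-size scaling 5 passed as higher and 3 as lower, with a median of 0.24. In the 4 Crym KO mice 2 passed as higher and 3 as lower, with a median of 0.03, so no firm direction can be given for this list. Cnp, a myelin enzyme, was at 704, 529, 545 and 491 CPM in IP, against 379, 325, 355 and 401 CPM in Input, a log2 fold change of 0.63 (adjusted p = 1.77e-04, SE 0.08). Mobp, another myelin protein, was at 462, 374, 399 and 327 CPM in IP, against 638, 523, 587 and 666 CPM in Input and changed by -0.63 (adjusted p = 2.18e-04, SE 0.09), so genes of 1 cell type took opposite signs. The mice differed here. The median ratio of the list was 0.70, 0.46, 0.43 and -0.06, highest in mouse 1 and lowest in mouse 4 for all 14 genes, and without mouse 4 it was 0.57 with 11 of 14 higher. Precursor genes were lower in IP for 7 of 11, with Pdgfra, the receptor that defines these cells, at -1.10 and Sox10, a factor of the whole lineage, at 0.33, adjusted p = 0.00702. The Sox10 call was lost under library-size scaling (0.16, adjusted p = 0.146).

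**Figure D3:**
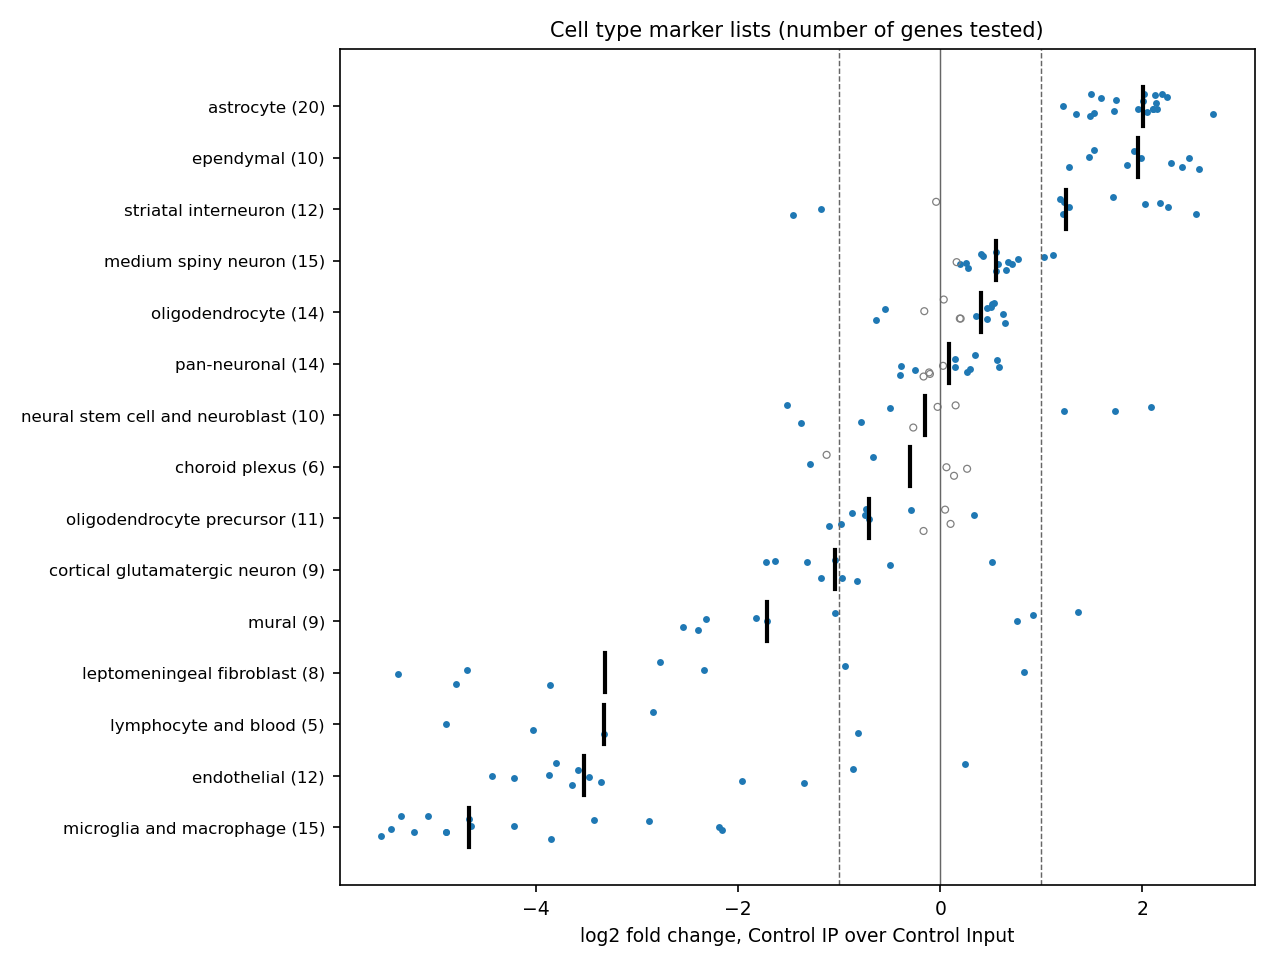
Log2 fold change of Control IP over Control Input (horizontal axis) for each tested gene of 15 cell type marker lists, 1 point per gene, filled where it passed the test and open where it did not. Black bars are list medians and dashed lines stand at 1 and -1. Astrocyte and ependymal genes lie to the right of 1, pan-neuronal and oligodendrocyte genes lie around 0, interneuron genes lie mostly to the right of 1, and cortical neuron, endothelial, blood and microglial medians lie to the left of -1, while 3 of the 9 mural genes lie to the right of 0.

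Genes of ependymal cells, the ciliated cells that line the ventricles next to the striatum, were enriched too. All 10 passed as IP-enriched, with a median of 1.95 and a range of 1.27 to 2.56. Their summed level was low and uneven, at 142, 83.4, 64.9 and 88.2 CPM in IP, against 22.1, 21.0, 18.1 and 21.0 CPM in Input, and the ratio was highest in mouse 1 for all 10. Foxj1, the master regulator of motile cilia, was at 71.5, 44.3, 41.0 and 50.5 CPM in IP, against 11.6, 10.4, 9.33 and 10.7 CPM in Input, a log2 fold change of 2.29 (adjusted p = 3.25e-07, SE 0.09). Without mouse 1 the list median was 1.65 and all 10 were still enriched. GEO's design text describes IP as enriched for astrocytes and does not mention ependymal cells.

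A wider list of 36 genes of the motile cilium, chosen after the values had been seen, moved with them. Of these, 33 passed as higher in IP, 22 as IP-enriched, none as lower, and the median was 1.38. Several genes at the top of the table were of this kind, including Cdhr4 with 6.97, 4.57, 2.69 and 3.52 CPM in IP, against 0.706, 0.872, 0.491 and 0.502 CPM in Input (2.75), and the dynein light chain gene Tctex1d4 (3.03) had the highest fold change that the naming rule allowed. Within the list the heavy chain Dnah6 was at 1.70 and Dnah2, also a dynein heavy chain, at 0.33, a call that was lost without mouse 1, 2 or 4 (adjusted p = 0.143, 0.0974 and 0.127). The motif GTTGCC is the half-site of RFX factors, which control ciliary genes. It was in 15 of the 32 promoters of the list that had a sequence (46.9%), beside 155 of 975 IP-enriched (15.9%), 110 of 1013 IP-depleted (10.9%) and 1517 of 11711 of all tested promoters (13.0%). Over all 27025 promoters the share was 12.7%. A pair of them, each with 2 matches in capitals, is shown as the 250 bases upstream of the start, where a match on the other strand reads GGCAAC.
Spag16 (chr1:69826720-69826969, plus strand): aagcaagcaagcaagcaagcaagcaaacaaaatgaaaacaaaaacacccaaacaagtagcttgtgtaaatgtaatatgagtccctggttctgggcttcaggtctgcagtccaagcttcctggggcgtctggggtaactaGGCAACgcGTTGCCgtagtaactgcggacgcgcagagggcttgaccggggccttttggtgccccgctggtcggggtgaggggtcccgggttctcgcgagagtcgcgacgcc
Lrrc23 (chr6:124779728-124779977, minus strand): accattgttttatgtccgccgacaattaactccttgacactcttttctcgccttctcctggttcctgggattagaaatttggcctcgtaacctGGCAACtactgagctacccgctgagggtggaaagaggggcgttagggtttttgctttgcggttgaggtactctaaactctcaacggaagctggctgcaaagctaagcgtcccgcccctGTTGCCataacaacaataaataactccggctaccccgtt
A match describes these letters in this window and does not show binding.

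Choroid plexus genes rested on 1 animal. The summed level of the 8 listed genes, 6 of which were tested, was 26.5, 16.2, 12.2 and 167 CPM in IP, against 17.2, 12.4, 13.5 and 631 CPM in Input, that is, far above the others in mouse 4 only. Ttr, the thyroid hormone carrier that the choroid plexus secretes, was at 9.41, 1.15, 1.63 and 142 CPM in IP, against 7.12, 0.892, 2.28 and 584 CPM in Input. Its log2 fold change was -1.29 (adjusted p = 0.0126, SE 0.38), but 0.23 (adjusted p = 0.286) without mouse 4. None of the 6 tested genes, Ttr included, passed in the fit without the mouse term, with edgeR or with DESeq2. The choroid plexus lies in the ventricle beside the striatum, and its part in the other values of mouse 4 was not tested.

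Genes shared by neurons of all kinds lay near 0 as a group. Of 14 such genes 7 passed as higher in IP, 3 as lower and 4 did not pass, and the median was 0.08. When scaled to plain library size the split was 4 higher and 6 lower with a median of -0.09, so no direction can be given for this list, and without mouse 2 it had 5 lower genes. Snap25, a protein of the synaptic vesicle release machinery, was at 1857, 2541, 2288 and 1957 CPM in IP, against 2500.3, 2549, 2374 and 2195 CPM in Input (-0.17, adjusted p = 0.0644), and passed as lower without mouse 2 (-0.21, adjusted p = 0.0254). Of 25 presynaptic genes 10 passed as lower and 3 as higher, with a median of -0.15, and the share that was lower was near the 38.1% of all genes. Without mouse 1 the split was 8 higher and 7 lower (median -0.02), without mouse 4 it was 3 and 6, and with every counted gene included it was again 8 and 7, so no direction can be given here either. Glutamate and GABA receptor subunits split into 16 higher and 13 lower out of 38, beside 36.6% higher and 38.1% lower of all genes tested. Under library-size scaling they split into 9 higher and 20 lower, so this list has no direction either. The 3 subunits higher by more than 2-fold, Gabrg1 (1.70), Grin2c (1.46) and Grm3 (1.03), are known for expression in astrocytes, and the presynaptic glutamate receptor Grm2 was lower by more than 2-fold (-1.66).

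Genes of medium spiny neurons, the principal neurons of the striatum, were a little higher in IP. Of 15 genes 14 passed as higher, none as lower, with a median of 0.55, and with plain library-size scaling 11 passed with a median of 0.38. Drd1, the dopamine receptor of the direct pathway, was at 307, 288, 338 and 356 CPM in IP, against 230.0, 188, 239 and 208 CPM in Input, a log2 fold change of 0.58 (adjusted p = 3.90e-05, SE 0.06). Penk, the enkephalin precursor of the indirect pathway, had 986, 939, 973 and 1142 CPM in IP, against 503, 403, 511 and 451 CPM in Input and changed by 1.12 (adjusted p = 2.49e-06, SE 0.07). Penk and Gad1, the GABA-synthesising enzyme (1.02), were the 2 genes of the list past 2-fold, and neither passed 2-fold with that scaling. None of the 15 was IP-depleted, whereas all 15 microglial genes were.

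Interneuron genes went further. Of 12 genes of striatal interneurons 9 were IP-enriched and 2 IP-depleted, with a median of 1.25. Chat, which makes acetylcholine and defines the cholinergic interneuron, was at 65.8, 38.9, 59.3 and 74.1 CPM in IP, against 10.1, 10.1, 11.2 and 9.39 CPM in Input, a log2 fold change of 2.53 (adjusted p = 1.13e-06, SE 0.14). Markers of the somatostatin and nitric oxide class were higher too, with Sst at 99.0, 89.4, 122 and 115 CPM in IP, against 48.8, 46.1, 45.4 and 46.2 CPM in Input (1.18), Npy at 1.22 and the nitric oxide synthase Nos1 at 1.71. Pvalb, which marks fast-spiking interneurons, was at 64.8, 48.3, 28.3 and 42.9 CPM in IP, against 52.9, 50.3, 37.1 and 44.5 CPM in Input and did not pass (-0.04, adjusted p = 0.702). The 2 depleted genes, Vip (-1.18) and Cck (-1.46), are peptide genes known from cortical interneurons.

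A list of 12 cholinergic genes, drawn up after the values had been seen, gave 10 higher, 9 IP-enriched and none lower, with a median of 2.00. Its summed level was 444, 308, 418 and 517 CPM in IP, against 110.4, 119.9, 123 and 121 CPM in Input, close to the astrocyte ratio, and like the astrocyte list it was lowest in IP in mouse 2. Besides Chat the choline transporter Slc5a7 (2.25), the vesicular acetylcholine transporter Slc18a3 (2.18) and the bile acid transporter relative Slc10a4 (2.33) were enriched. The developmental factor Isl1 was higher by 0.83, and Gbx2 did not pass (0.27, adjusted p = 0.374). Slc18a3 lies within the first intron of Chat, so reads of these neighbours may in part be shared.

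Genes of cortical glutamatergic neurons, whose cell bodies lie outside the striatum, were lower in IP for 8 of 9, with a median of -1.04. Slc17a7, their vesicular glutamate transporter, was at 90.6, 264, 251 and 90.7 CPM in IP, against 469, 444, 512 and 456 CPM in Input, a log2 fold change of -1.64 (adjusted p = 4.24e-04, SE 0.26). The list summed to 378, 581, 584 and 375 CPM in IP, against 912, 871, 884 and 841 CPM in Input, so the IP of mice 1 and 4 held less of it than that of mice 2 and 3 while the Input libraries were alike. The median without mouse 1 was -0.85 and without mouse 4 it was -0.81, and 8 of 9 still passed as lower each time. Rorb, a cortical layer factor that astrocytes also express, was the one member higher in IP (0.51).

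Midbrain dopamine neurons send axons to the striatum, and their cell bodies are elsewhere. Slc6a3, the dopamine transporter, was at 1.90, 0.154, 0.176 and 144 CPM in IP, against 0.321, 0.142, 0.123 and 25.1 CPM in Input, so that mouse 4 alone held more than 2 CPM. Its log2 fold change was 2.46 (adjusted p = 1.60e-06, SE 0.14), the fit without the mouse term gave 1.16 (adjusted p = 0.693), and the ratio had the largest spread between mice of all IP-enriched genes named for spread (SD 1.27). Slc18a2, the vesicular monoamine transporter, followed the same pattern with 2.21, 1.46, 1.05 and 46.7 CPM in IP, against 0.428, 0.872, 0.596 and 9.59 CPM in Input, and its call too was lost without the mouse term (adjusted p = 0.394). Th, which makes the precursor of dopamine, was at 11.9, 11.7, 12.2 and 56.1 CPM in IP, against 3.94, 3.02, 3.33 and 11.6 CPM in Input and was thus higher in IP in every mouse, at 2.03 (adjusted p = 1.20e-06, SE 0.11). A list of 16 such genes, drawn up after these values had been seen, summed to 266, 272, 269 and 573 CPM in IP, against 233, 218, 208 and 266 CPM in Input. The 10 of them that were tested had median ratios of 0.10, 0.17, 0.13 and 1.46 in the 4 mice. In the fit without mouse 4 the median of the list was -0.17, beside 1.17 with it. The expression filter was applied anew in that fit, so the 2 medians may cover different genes of the list. The developmental factors Foxa1, Foxa2, Lmx1a, Lmx1b, En1 and Pitx3 were too low in these libraries to be tested.

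**Figure D4:**
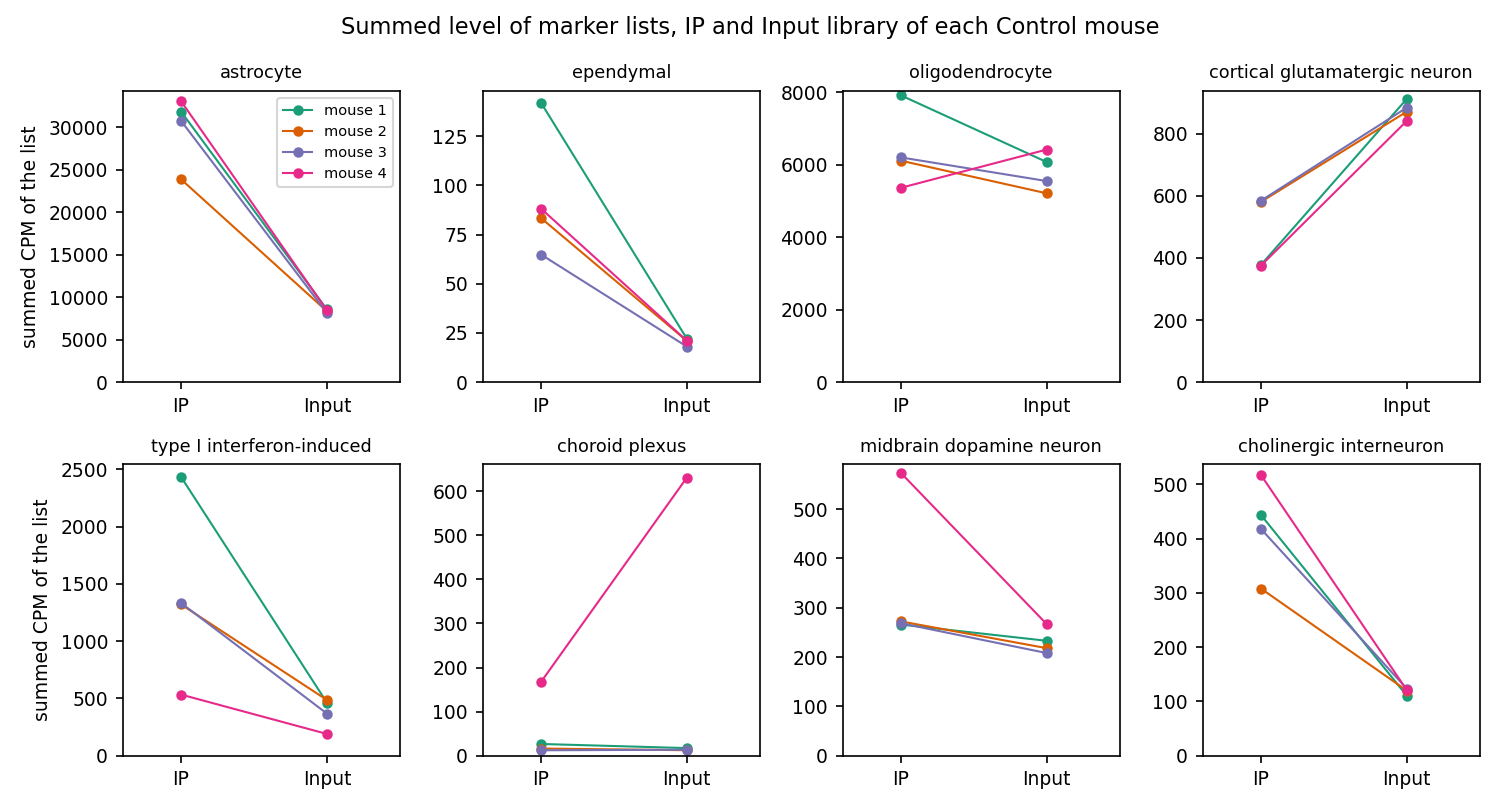
Summed CPM (vertical axes, from 0) of 8 marker lists in the IP (left) and Input (right) library of each Control mouse, with 1 line per mouse. Astrocyte and cholinergic sums are lowest in the IP of mouse 2, choroid plexus RNA reaches 631 CPM in the Input of mouse 4 alone, dopamine neuron RNA reaches 573 CPM in the IP of mouse 4 alone, and interferon-induced genes range between 534 and 2435 CPM in IP.

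Functions of astrocytes were examined by list, beginning with transmitter uptake. In the glutamate and glutamine cycle 11 of 15 genes were higher in IP and 2 lower, with a median of 1.14. Beside Slc1a2, the second glutamate transporter Slc1a3 (1981 ± 282 CPM in IP and 457 ± 13.8 CPM in Input, SD, n = 4 each, 2.10), the glutamine exporter Slc38a3 (1.95) and Pcx, the enzyme that refills the citric acid cycle for new glutamate, were enriched. Pcx changed almost equally in the 4 mice (1.15, 1.14, 1.09 and 1.16, SD 0.0308), the smallest spread of any IP-enriched gene at 10 CPM or more. The glutamine transporter Slc38a5 was lower (-4.32).

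For GABA, 10 of 12 genes were higher in IP. Slc6a11, the astrocyte GABA transporter GAT-3, was at 346, 239, 263 and 368 CPM in IP, against 86.5, 86.7, 82.4 and 117 CPM in Input, a log2 fold change of 1.70 (adjusted p = 5.27e-07, SE 0.08). Maob, a monoamine oxidase known from astrocytes, which can make GABA from putrescine, was at 72.0, 51.4, 67.6 and 68.0 CPM in IP, against 16.2, 14.9, 14.9 and 14.4 CPM in Input and changed by 2.10 (adjusted p = 2.44e-07, SE 0.07). Aldh1a1 (1.93) and the breakdown enzyme Abat (1.42) were enriched, and the meningeal transporter Slc6a13 was lower (-4.79). Genes for potassium buffering, water and gap junctions were higher in 17 of 20 cases and lower in 2, with a median of 1.19. They included the channel Kcnj10, which carries most of the potassium uptake of astrocytes, with 407, 308, 366 and 362 CPM in IP, against 129, 127, 112 and 127 CPM in Input (1.54) and the junction protein Mlc1 (2.13). Trpv4 (-1.23) and Kcnk2 (-0.41) were the lower members, and the Trpv4 call was lost without the mouse term (adjusted p = 0.0553).

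Calcium genes did not move together. Of 25, 12 were higher and 8 lower, with a median of 0.18, beside 36.6% higher and 38.1% lower of all genes tested. Under library-size scaling 9 were higher and 10 lower. Itpr2, the calcium release channel through which astrocyte receptors act, was at 88.4, 63.9, 89.9 and 81.9 CPM in IP, against 40.4, 40.6, 39.7 and 38.2 CPM in Input (1.02 (adjusted p = 8.17e-06, SE 0.08)), and the phospholipase Plcd4 had the largest change of the list (2.07). The ryanodine receptors Ryr1, Ryr2 and Ryr3 were lower, with log2 fold changes of -0.53, -0.32 and -0.38, and the Ryr2 call was lost without the mouse term (adjusted p = 0.0618). Receptors for transmitters and lipid mediators were higher in 17 of 25 cases and lower in 7, with a median of 0.29. Under library-size scaling 11 were higher and 7 lower, with a median of 0.12. The endothelin receptor Ednrb (2.10), the sphingosine receptor S1pr1 (2.01), the neurotensin receptor Ntsr2 (1.82) and the adenosine receptor Adora2b (1.62) led the higher ones. The adrenergic receptor Adrb1 (-0.59) was among the lower ones, 2 of which were IP-depleted.

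A pair of metabolic lists was higher throughout. All 24 genes of fatty acid oxidation and ketone metabolism were higher in IP, 18 of them IP-enriched, with a median of 1.29. Cpt1a, the gate for fatty acids into mitochondria, was at 118, 82.1, 113 and 111 CPM in IP, against 28.0, 27.6, 28.9 and 29.1 CPM in Input, a log2 fold change of 1.89 (adjusted p = 3.40e-07, SE 0.08), and its neuronal relative Cpt1c at 0.47. The matrix enzymes Acadl (1.87) and Acaa2 (1.75) were also enriched. All 28 genes of cholesterol synthesis and transport were higher, 7 past 2-fold, with a median of 0.78. The carriers Apoe (4573 ± 695 CPM in IP and 995 ± 63.5 CPM in Input, SD, n = 4 each, 2.19) and Clu (2.13) and the regulator Srebf1 (1.76) changed by more than this median. Under library-size scaling 23 of the 24 and 26 of the 28 passed.

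Glycogen and sugar genes were higher in 25 of 29 cases and lower in 3. The phosphorylases that break down glycogen, Pygm (99.6, 72.6, 68.2 and 84.9 CPM in IP, against 23.6, 21.7, 18.3 and 22.9 CPM in Input, 1.91), Pygb (1.76) and Pygl (1.52), were all enriched, as was Ppp1r3c (1.66), which targets phosphatase to glycogen. General glycolytic enzymes changed less, with Pkm at 0.89 and Ldha at 0.42. The neuronal lactate transporter Slc16a7 was lower (-0.71), while the glial one, Slc16a1, was higher (0.82). Gapdh (-1.19) has many processed pseudogenes and only 2.79 CPM of uniquely placed reads in IP, so its value is uncertain.

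In amino acid and one-carbon metabolism 23 of 28 genes were higher and 1 lower, with 16 enriched. Gldc, the glycine decarboxylase, was at 112, 75.2, 112 and 123 CPM in IP, against 27.0, 24.0, 26.2 and 26.4 CPM in Input (2.02 (adjusted p = 3.76e-07, SE 0.08)), and the proline oxidase Prodh (1.99), the lysine-degrading Aass (2.07) and Phgdh, the first enzyme of serine synthesis (1.59), belonged to the same group. Glutathione and antioxidant genes were higher in 24 of 26 cases, 15 past 2-fold, with a median of 1.21. Mgst1 (2.34), Gstm1 (2.11), Prdx6 (1.85), the metallothioneins Mt1 (1.77) and Mt2 (1.78) and their regulator Nfe2l2 (1.73) were examples. Gpx1 (-0.26) and Gpx4 (-0.16) were the lower ones, and the Gpx4 call was lost without mouse 3 or 4.

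**Figure D5:**
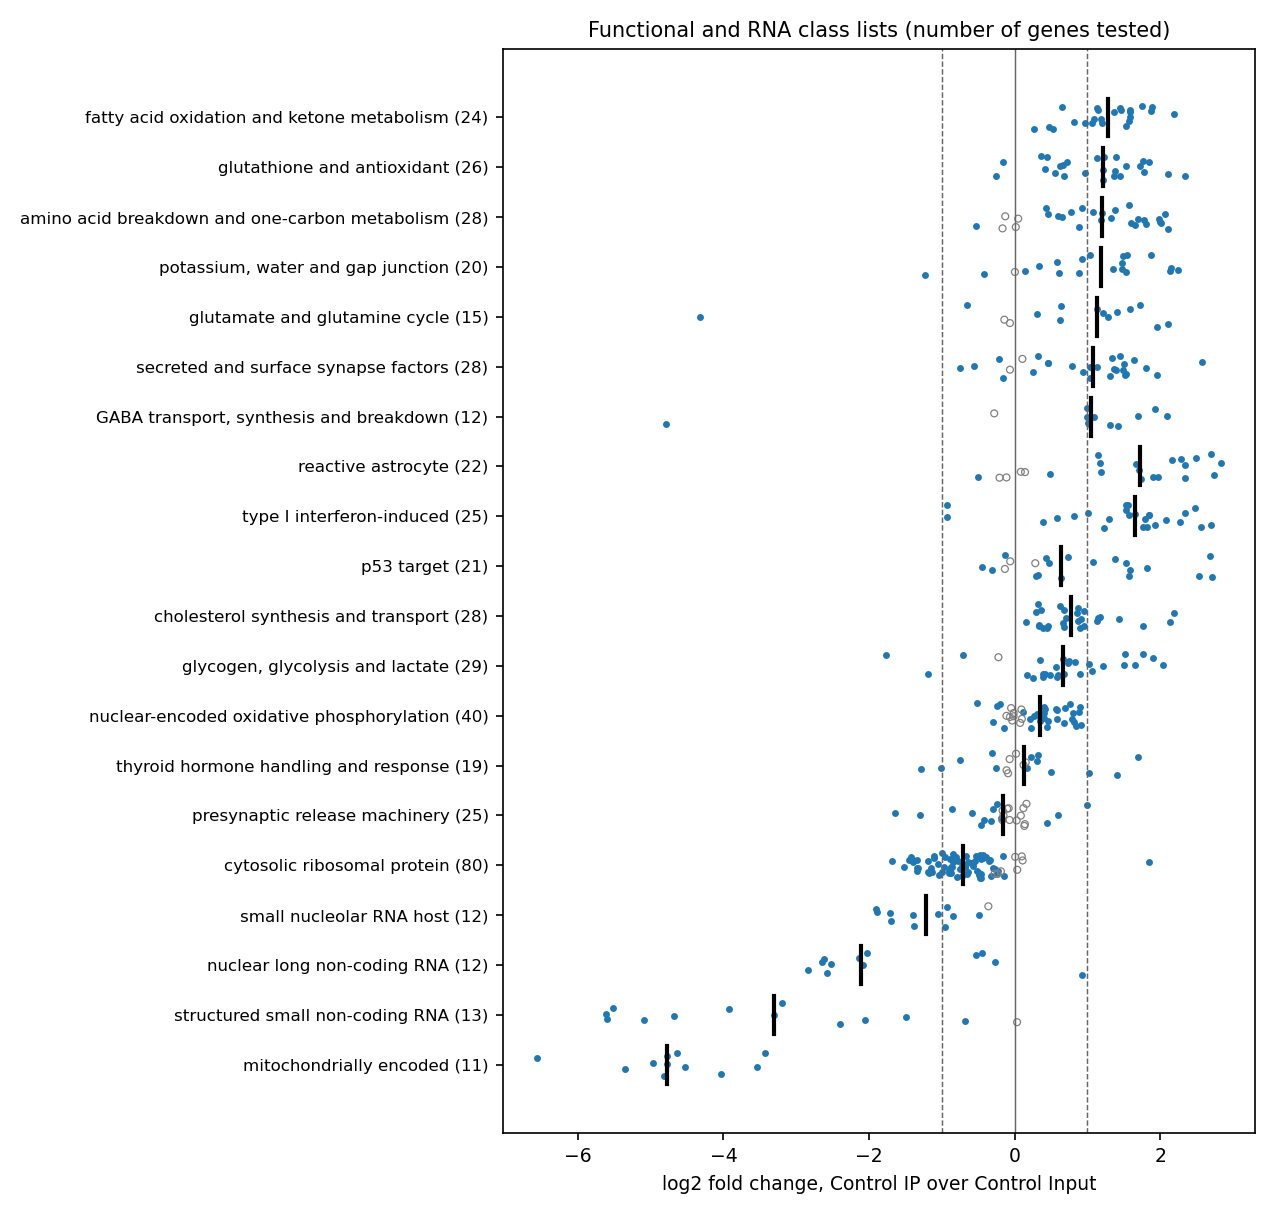
Log2 fold change of Control IP over Control Input (horizontal axis) for each tested gene of 20 functional and RNA class lists, 1 point per gene, filled where it passed the test and open where it did not, with black bars for list medians and dashed lines at 1 and -1. Medians run from 1.73 for reactive astrocyte genes and 1.29 for fatty acid oxidation down to -4.77 for genes of the mitochondrial genome.

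Secreted and surface proteins that act on synapses were higher in 22 of 28 cases, with a median of 1.08. Sparcl1, also called hevin, which promotes synapse formation, was at 5658, 4682, 5198 and 5993 CPM in IP, against 1554, 1569.5, 1413 and 1578 CPM in Input (1.81 (adjusted p = 2.51e-07, SE 0.07)). Thbs4 had the largest change (2.58), whereas the related thrombospondin Thbs1 was lower (-0.74), and the neuroligins Nlgn1 (-0.17) and Nlgn2 (-0.22), which neurons also use, were slightly lower, a call that Nlgn1 lost without mouse 3 (adjusted p = 0.0660). Megf10 (1.51) and Mertk (1.13), receptors with which astrocytes engulf synapses, were enriched. Of 28 adhesion genes 27 were higher and none lower. Ezr, an actin linker of fine astrocyte processes, was at 224, 183, 215 and 222 CPM in IP, against 48.5, 52.0, 47.2 and 48.2 CPM in Input, a log2 fold change of 2.10 (adjusted p = 1.78e-07, SE 0.07), among the 10 smallest p of all genes higher in IP.

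Transcription factors and signalling genes followed. Of 24 factors of astrocytes and forebrain 18 were higher and none lower, with Nr2e1 (1.84), Rfx4 (1.48), Sox2 (1.43), Id3 (1.43) and Id4 (1.40) enriched and Nfia at 0.63. Nfix (-0.07, adjusted p = 0.200) did not pass, and under library-size scaling 3 of the 24 passed as lower. Of 37 genes of the Notch, Shh, BMP, FGF and Wnt pathways 28 were higher and 6 lower, the receptors Fgfr3 (1.74), Bmpr1b (1.68) and Fzd2 (1.81) among the higher ones and the ligand Bmp4 (-1.54) lower. Of 10 genes of neural stem cells and neuroblasts 3 were higher, 4 lower and 3 did not pass, with a median of -0.15. By direction these shares were near the 36.6% higher and 38.1% lower of all genes tested. Tubb2b (2.08) and Egfr (1.73) were among the higher ones and the neuroblast gene Dcx (-1.52) among the lower ones.

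Genes that handle thyroid hormone, the ligand of μ-crystallin, split. Of 19, 8 were higher and 5 lower, with a median of 0.12, beside 36.6% higher and 38.1% lower of all genes tested. Under library-size scaling 5 were higher and 9 lower. Ttr, whose call rested on mouse 4, was among the lower genes. Without mouse 4 the list had 8 higher and 4 lower genes with none IP-depleted, beside 2 IP-depleted with it. Dio2, the astrocyte enzyme that makes active hormone from its precursor, was at 288, 237, 307 and 307 CPM in IP, against 114, 117, 102 and 98.2 CPM in Input, a log2 fold change of 1.40 (adjusted p = 3.14e-06, SE 0.09). Slco1c1, which transports the precursor, was enriched (1.02). The receptors did not follow them, with Thra lower (-0.30) and Thrb not passing (-0.07, adjusted p = 0.366), and Dio3, the inactivating enzyme, was lower at -0.75, a call that was lost without mouse 2 (adjusted p = 0.0680).

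Genes linked to reactive astrocytes were mostly enriched. Of 22, 17 were higher, 16 past 2-fold and 1 lower, with a median of 1.73 beside 2.01 for the astrocyte marker list. The ratio compares 2 fractions of the same mice, so it does not say whether these astrocytes were reactive. The guanylate-binding protein Gbp2 was at 200.2, 128, 199.7 and 43.1 CPM in IP, against 21.2, 28.3, 28.6 and 6.60 CPM in Input, a log2 fold change of 2.74 (adjusted p = 9.95e-07, SE 0.14), and was thus lowest in mouse 4 in both fractions. The secreted protein Lcn2 (2.83) was among the 15 highest genes but reached only 1.20 ± 1.09 CPM in IP (SD, n = 4), and the filament Vim (2.17) and the protease inhibitor Serpina3n (2.34) were higher at larger levels. The complement gene C3 had one of the 5 largest spreads between mice, with ratios of 2.21, 0.26, 0.59 and 1.58. Nes (-0.21, adjusted p = 0.102) did not pass.

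Genes induced by type I interferon, a list drawn up after the values had been seen, were higher in IP for 23 of 25, with 20 IP-enriched, 2 lower and a median of 1.66. The summed level was 2435, 1321, 1333 and 534 CPM in IP, against 464, 487, 368 and 189.8 CPM in Input, so that mouse 1 was highest and mouse 4 lowest in IP. Ifit3, an antiviral protein, was at 446, 216, 212 and 80.6 CPM in IP, against 53.7, 53.1, 34.3 and 14.1 CPM in Input, a log2 fold change of 2.56 (adjusted p = 1.08e-06, SE 0.14). It has a near-identical neighbour, Ifit3b (2.70), and reads that fit both were not counted. Oas2 (-0.92) and Oas3 (-0.93) were lower, calls that were lost without the mouse term (adjusted p = 0.244 and 0.280).

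The core of the interferon-stimulated response element, GAAA followed by any 2 bases and GAAA, was searched on both strands as a motif chosen after the data were seen. It was in 11 of the 18 promoters of the list with a sequence (61.1%), beside 66 of 975 IP-enriched promoters (6.77%), 43 of 1013 IP-depleted promoters (4.24%), 358 of 11711 of all tested (3.06%) and 3.49% of all 27025. A pair is shown as before, with matches in capitals. In Isg15, a ubiquitin-like protein (1.84), 3 matches overlap, and in Ifit3 the 2 matches lie on the other strand, where they read TTTC, 2 bases and TTTC.
Isg15 (chr4:156200819-156201068, minus strand): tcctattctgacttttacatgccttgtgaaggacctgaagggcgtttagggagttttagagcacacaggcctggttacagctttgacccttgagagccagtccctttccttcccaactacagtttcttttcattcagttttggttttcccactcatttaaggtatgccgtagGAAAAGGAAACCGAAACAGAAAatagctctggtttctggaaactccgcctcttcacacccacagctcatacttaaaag
Ifit3 (chr19:34583279-34583528, plus strand): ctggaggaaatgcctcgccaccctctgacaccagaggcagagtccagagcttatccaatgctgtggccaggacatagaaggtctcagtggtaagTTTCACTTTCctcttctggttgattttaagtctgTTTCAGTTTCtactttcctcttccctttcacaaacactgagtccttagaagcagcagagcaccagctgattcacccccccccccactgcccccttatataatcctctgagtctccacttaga

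Targets of the damage-response factor p53 were a further list added with the values known. Of 21, 15 were higher, 9 of them past 2-fold, 3 lower and 3 did not pass, with a median of 0.63. Eda2r (25.3, 17.1, 16.5 and 18.3 CPM in IP, against 2.59, 4.40, 2.61 and 2.19 CPM in Input, 2.71) and the death receptor Tnfrsf10b (2.68) were among the 15 highest genes of the table, and the cell cycle inhibitor Cdkn1a was at 37.1, 32.4, 27.5 and 25.6 CPM in IP, against 8.90, 11.6, 7.35 and 7.04 CPM in Input (1.82 (adjusted p = 9.25e-07, SE 0.09)). Mdm2 changed little (0.29), and Bbc3 (-0.13, adjusted p = 0.306) and Zmat3 (-0.06, adjusted p = 0.335) did not pass.

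Mitochondrial and nuclear RNA stood at the lower end of the table. All 11 tested protein genes of the mitochondrial genome were IP-depleted, with a median of -4.77. mt-Co1, a cytochrome oxidase subunit, was at 641, 562, 744 and 562 CPM in IP, against 15917, 16142, 15475 and 14666 CPM in Input, a log2 fold change of -4.64 (adjusted p = 1.85e-08, SE 0.07), and mt-Nd6 was the lowest gene of all (-6.56). Reads of the mitochondrial genome made up 0.139, 0.104, 0.152 and 0.111% of counts in IP, against 6.07, 6.12, 5.88 and 5.15% in Input. Nuclear genes for the same respiratory chain were higher in 26 of 40 cases and lower in 5, with a median of 0.35 and none past 2-fold, and under library-size scaling 22 were higher and 11 lower.

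Nuclear long non-coding RNA was depleted in 8 of 12 cases. Malat1, which stays in nuclear speckles, was at 1008, 1169, 1007 and 772 CPM in IP, against 5951, 5684, 5524 and 5400.1 CPM in Input, a log2 fold change of -2.53 (adjusted p = 1.62e-07, SE 0.08), and Meg3 (-2.84) and Rian (-2.14), RNAs of an imprinted cluster, were among the 10 smallest p of the lower genes. Pantr1 was higher (0.93). Small structured RNAs were lower in 12 of 13 cases, among them Rmrp (15.3, 18.2, 14.8 and 9.23 CPM in IP, against 689, 636, 663 and 813 CPM in Input, -5.61), the RNA of a nucleolar ribonuclease, and the signal recognition particle RNAs Rn7s1 (-5.60) and Rn7s2 (-5.52), which are near-identical copies. Host genes of small nucleolar RNAs were lower in 11 of 12 cases, with a median of -1.22.

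By annotated class, protein-coding genes gave 1268 of 15099 enriched (8.40%), 1376 depleted (9.11%) and a median of 0.09, and with no fold minimum 6568 were higher and 4597 lower. Loci still to be experimentally checked (TEC), many of them single-exon and within introns, were depleted in 1066 of 1200 cases (88.8%), with a median of -2.63. Sense-intronic transcripts (143 of 151, -2.67) and small nucleolar RNAs (63 of 68, -2.45) were alike. Long intergenic RNAs were depleted in 253 of 589 cases (43.0%), with a median of -0.84. Strand use in the counting was not stated, so an antisense or intronic locus cannot be told apart from the gene it overlaps. Among protein-coding genes coding length bore little relation to the ratio, with a Spearman rho of 0.07 over 15082 genes, which are not independent replicates, and medians of -0.17 for the 280 genes under 300 coding nucleotides and 0.12 for the 756 of 4800 or more.

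The translation machinery itself was split. Of 80 genes for cytosolic ribosomal proteins 72 were lower in IP and 7 did not pass, with a median of -0.70, and Rpl22 was the only one higher. Rplp1 was at 76.0, 73.7, 78.3 and 79.3 CPM in IP, against 189, 187, 197 and 202 CPM in Input (-1.34 (adjusted p = 1.10e-07, SE 0.04)) and Rps3 at 182, 167, 169.9 and 167 CPM in IP, against 208, 216, 219.7 and 229.9 CPM in Input (-0.35 (adjusted p = 2.66e-04, SE 0.05)). These genes have many processed pseudogenes, and only uniquely placed reads were counted, so single values are uncertain. Initiation and elongation factors were higher in 23 of 36 cases and lower in 7, with a median of 0.18, but under library-size scaling 13 were higher and 10 lower, with a median of 0.01. Immediate early genes, which respond to activity, gave 5 higher and 5 lower out of 14. Both shares were near those of all genes tested, 36.6% higher and 38.1% lower.

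Per length of transcript, on a scale like TPM, the most abundant protein-coding messages of the nuclear genome in IP were Apoe (8814 in IP, 1894 in Input), Sparcl1 (7556 and 2117) and Cpe (5469 and 1817), which encodes a prohormone-processing enzyme. Of the 20 highest in IP, 13 were IP-enriched and 12 were also among the 20 highest in Input. Neuronal and widely expressed messages were also at the top of IP, with the calmodulin gene Calm2 at 4041 in IP and 3729 in Input and Penk at 2549 in IP and 1162 in Input. By level, 769 of the 1425 enriched genes reached 10 CPM in IP and 249 reached 100 CPM.

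The ratios of the 4 mice differed in size. Over the 769 genes the median SD of the log2 ratio over the 4 mice was 0.225. It was 0.104 over the 10737 tested genes with a mean of at least 10 CPM in IP or in Input, a wider filter than that of the 769. The median ratios of the 769 genes were 1.64, 1.19, 1.48 and 1.49 in mice 1 to 4. The largest spreads belonged to Slc6a3, Ngfr, the nerve growth factor receptor of cholinergic cells (SD 0.936), C3 (0.896), Slc18a2 (0.866) and the interferon-induced Tgtp1 (0.779). After Pcx, the smallest belonged to Ckb, the brain creatine kinase (0.0356), Btbd17 (0.0434), the pseudogene Gm12892 (0.0438) and Col11a2 (0.0439). Btbd17 also had the smallest p of all genes higher in IP, with 61.4, 39.1, 43.5 and 57.2 CPM in IP, against 17.2, 11.2, 11.7 and 15.3 CPM in Input, a log2 fold change of 1.86 (adjusted p = 9.94e-08, SE 0.05).

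The same comparison in the 4 Crym KO mice, which are other animals with other libraries, gave 1560 IP-enriched genes (7.99% of 19528 tested) and 3479 IP-depleted genes (17.8%). Of the 1425 enriched in Control mice 1298 were enriched in Crym KO mice too, 91.1% of the Control and 83.2% of the Crym KO set. Of the 3666 depleted 3068 were shared, 83.7% of the Control and 88.2% of the Crym KO set. Across the 19252 genes tested in both, the ratios of the 2 genotypes correlated with a Pearson r of 0.972 and a Spearman rho of 0.971, a description over genes that are not independent. Genes past the test with opposite signs numbered 7. Htr2c, Fat4, Zfp618 and Nts were higher in IP in Control and lower in Crym KO mice, and Ptger4, Epn3 and Bhlhe40 the reverse, and these 7 were named after their values were seen. For all of them but Nts the call in Control mice was lost under at least 1 other setting, for example for Htr2c with plain library-size scaling (adjusted p = 0.705), for Fat4 without mouse 3 (0.0727) and for Zfp618 (0.0601), Ptger4 (0.0915), Epn3 (0.0796) and Bhlhe40 (0.105) without mouse 1.

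The difference of the ratios, Control minus Crym KO, was tested in all 16 libraries. No gene of 20645 passed in limma-voom, where the lowest adjusted p was 0.487 and 915 genes had an unadjusted p under 0.05. None passed with edgeR either, with 914 at that unadjusted p, whereas DESeq2 called 11 with 583 at that p. Crym was one of the 11, with a ratio of 1.70 in Control and 0.53 in Crym KO mice and a DESeq2 difference of 1.19 (adjusted p = 4.20e-07). Rpl22 was another, at 1.85 in Control and 2.56 in Crym KO mice, a DESeq2 difference of -0.70 (adjusted p = 5.81e-04). Slc6a3, which rested on mouse 4 of the Control group, was at 2.46 in Control and 0.38 in Crym KO mice, and the difference was not called by any of these tools.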

How the data were processed

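The authors deposited 1 table of whole-number counts of reads per gene for 16 libraries, made with STAR and HTSeq on mm10 (GRCm38) from uniquely placed reads of rRNA-depleted, single-pool libraries (bcl2fastq 2.17, in the submitters' processing notes). Since the study's methods name a RefSeq model and the table holds Ensembl identifiers, the gene model is uncertain, and strand use is not given in the sources used here. Of 48795 identifiers 48435 matched the GRCm38 annotation, and the other 360 held 0.0765% of counts. The 8 Control libraries were fitted with limma-voom, which the study names (limma 3.58.1, edgeR 4.0.16, R 4.3.3), after the edgeR expression filter and TMM scaling, with mouse as a fixed block; moderated p-values (two-sided) were adjusted after Benjamini and Hochberg over 19715 genes, with a threshold of 0.05. IP and Input libraries of a number came from the lysate of 1 mouse, and their deviations from the group means correlated at r = 0.236 to 0.497 in 4 pairs, beside -0.301 to 0.118 in 12 pairs of different mice. Replicates were separate mice, and no libraries were duplicates, since counts within a group differed by 7.42 to 74.9 times sampling noise (chi-square per degree of freedom). 

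The members and the lists were chosen with earlier results of these data known, so no list was tested; 43 lists were fixed with the design and 5 (interferon, p53, cholinergic, midbrain dopamine and motile cilium) were added after the values had been seen. Named genes were 11 fixed ones, and, with at least 1 CPM in the higher fraction and no overlap, the 15 highest and 15 lowest fold changes and the 10 smallest p in each direction, then up to 5 members per list and members that moved against it, and the 5 largest and 5 smallest spreads among IP-enriched genes at 10 CPM or more. Other list members are named as examples of their list, chosen after their values were seen, and some members are not reported here. CPM are TMM-scaled, the ratio of a single mouse used 0.1 CPM as pseudocount, and per-length levels used the annotated exonic length. Promoter sequences are from RefSeq, GRCm38.p6. Alternatives were other scalings, filters and tools (DESeq2 1.42.0), no block, all 16 libraries and leaving out each mouse. Counts cover sampling of reads, which are not independent molecules.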

Additional observations from a re-analysis of the deposited data

Results flagged for a closer look

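Of 118 sets of 4 libraries examined for a single distant value, 10 were picked out, where chance gives about 1 in 20. Choroid plexus genes summed to 167 CPM in the IP of mouse 4, against 12.2 to 26.5 CPM in the IP of the other 3 mice, and to 631 CPM in its Input, against 12.4 to 17.2 CPM in the Input of the others. Midbrain dopamine neuron genes summed to 573 CPM in the IP of mouse 4, against 266 to 272 CPM in the IP of the others. In the Input of mouse 4 thyroid hormone genes, a list that includes Ttr, summed to 2438 CPM, presynaptic genes to 10252 CPM, the lowest of the 4, and Slc6a11 stood at 117 CPM, the highest. The Input of mouse 3 had the lowest sum of synapse factors, 4333 CPM, and the highest Crym level, 65.8 CPM. Glycogen and glycolysis genes were lowest in the Input of mouse 2 at 5866 CPM. Rpl22 was lowest in the IP of mouse 3 at 281 CPM.

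In DESeq2 the IP over Input log2 ratio differed between Control and Crym KO mice for 11 genes, none of which passed in limma-voom or edgeR, and 10 of them are given here. The ratio was higher in Control mice for Crym (1.19), the neuropeptide gene Nts (1.06), the serotonin receptor Htr2c (0.42), Lmo7 (0.31) and the semaphorin receptor Nrp2 (0.77). It was lower in Control mice for Rpl22 (-0.70), the transcription factor Zic1 (-0.81), the phospholipase Plcb4 (-0.32), Aifm3 (-0.44) and Amotl1 (-0.45).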

How the results depend on the processing

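Of 344 genes chosen by the naming rule 341 passed the test, 319 kept their direction and their side of the threshold under all 15 alternatives, and 23 lost the call in at least 1. Of these 344 only Ttr changed sign, with -1.87 to 0.23 when 1 mouse was left out, 0.23 being the value without replicate 4. Of 54 other genes in the text, 45 of them called, 35 kept their side of the threshold throughout, 12 lost the call and 7 gained one in at least 1 alternative. Leaving out 1 mouse at a time gave 1306 to 1564 IP-enriched and 3671 to 3759 IP-depleted genes. Without the replicate block there were 1393 and 3696, of which 1387 and 3632 were shared with the paired fit, so the pairing by mouse moved neither count by over 1.5 times. IP-enriched genes numbered 7217 with no fold minimum and 238 above a log2 fold change of 2. IP-depleted genes numbered 7502 with no fold minimum, 2124 below -2, 6032 with every gene that had a count, 1925 with at least 1 CPM in 4 of 8 libraries and 1524 among protein-coding genes alone. The median of all genes was -0.19 with library-size scaling, -0.16 with upper-quartile scaling and -0.16 with every counted gene included, beside -0.02. Library-size and upper-quartile scaling split the genes past the test into 5027 higher and 9519 lower, and 5425 higher and 9175 lower, beside 7217 and 7502. DESeq2 called 11 genes for the difference between genotypes where limma-voom called 0.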
